A study of Mus musculus with 31 samples.

Results

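The 16 livers described here came from fed mice, and the account is of how individual animals differed within their own group. They were 8 Fast-Fast-Fed and 8 Fed-Fed-Fed arrays of a series of 31, chosen by their titles. All animals were male C57BL/6 mice aged 3 to 4 months and were sampled in the morning, with no clock hour in the labels. Fast-Fast-Fed mice had gone through 2 fasts of 16 h within 8 weeks and were fed again when sampled. Fed-Fed-Fed mice had food ad libitum throughout and were fed when sampled. Each array held the RNA of 1 liver, labelled with biotin from 100 ng of total RNA. For every gene the mean of its group was subtracted, so no difference between the group means was tested, and the spread that remained was described as a standard deviation (SD) with 14 degrees of freedom. Each array was taken as 1 animal, without repeat arrays, so this SD holds measurement error as well as differences between animals. Values are RMA log2 values throughout, where a difference of 1 is a factor of 2. Where 3 values of a group are given together they are the lowest, the median and the highest of its 8 arrays.

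Inbred mice of one sex and age, kept on the same food, still differ in when they last ate, in the phase of their liver clock, in pulses of pituitary growth hormone and in the number of resident immune cells. The liver reads these signals continuously: insulin and sterol supply set the SREBP factors that drive fat and cholesterol synthesis, fatty acids act on the nuclear receptor PPAR-alpha, and growth hormone acts through STAT5, with a pulsed pattern in males. Genes under one of these signals can therefore move together from animal to animal within a group.

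Most genes differed little between fed livers. Over 22180 genes the median SD was 0.20, a factor of 1.15, and the 5th and 95th percentiles were 0.11 and 0.37. An SD above 0.5, a factor of 1.41, was reached by 273 genes, 1.23% of those measured, and an SD above 1 by 10 genes, or 0.0451%. Of the 273 genes, 142 were among the 14317 genes with a mean below 4 over all 31 arrays, where most probe sets are dim. The other 131 were among the 7863 genes with a mean of at least 4, which is a larger share. The median SD was 0.19 for genes with a mean below 2, and 0.26 for those with a mean of 2 to 4. For genes with a mean of 8 or more it was 0.13. Just inside the boundary at 0.5 stood Cd5l and Abcd2 (SD 0.5007 and 0.5002), and just outside it Gbp4 (0.499) and Mir3471-1 (0.498). The ranking was partly shared between the groups: the Spearman rank correlation of the SD in Fast-Fast-Fed livers with that in Fed-Fed-Fed livers was 0.46 across genes, which are not independent replicates, and 0.56 over the 7863 brighter ones. The SD over the 16 fed arrays and that over the 15 fasted arrays had a rank correlation of 0.58.

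**Figure D1:**
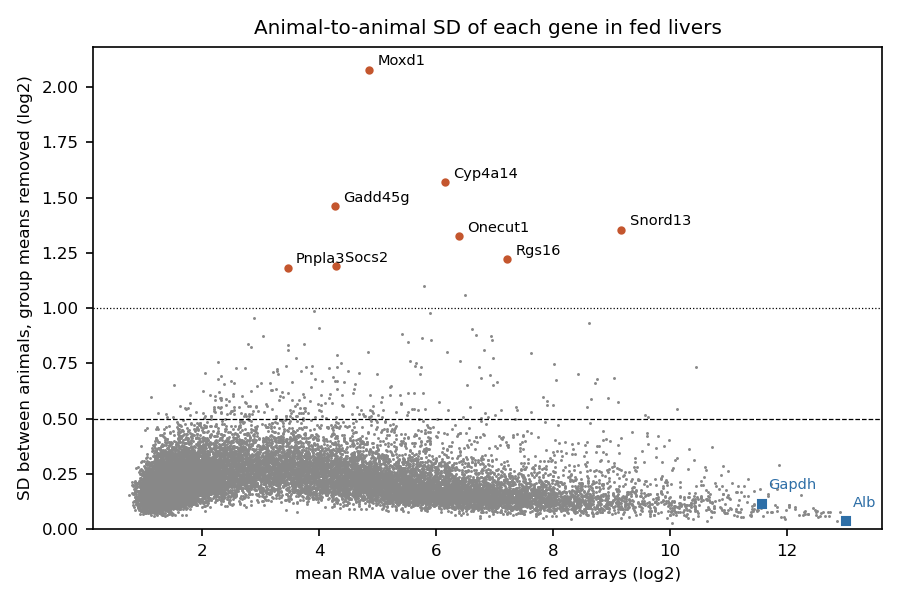
SD between animals (y axis, log2, group means removed) against the mean over the 16 fed arrays (x axis, log2) for each of 22180 genes as a grey point. The dashed and dotted lines stand at 0.5 and 1, the 8 labelled red points are the genes with the highest SD among those with full gene names, and Alb and Gapdh (blue squares) lie near the bottom.

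The liver label was checked against its markers. Of 10 hepatocyte markers 9 were measured, with a median SD of 0.066, and albumin (Alb) had 12.93, 12.99 and 13.03 in Fast-Fast-Fed livers and 12.99, 13.03 and 13.07 in Fed-Fed-Fed livers. Ass1, the argininosuccinate synthase of the urea cycle, was the exception among them with an SD of 0.49. Markers of exocrine pancreas (9 of 12 measured) and skeletal muscle (9 of 9) had list means between 1.63 and 1.94 on every fed array, and none of them reached an SD of 0.5. Correlations between whole fed arrays were 0.973 to 0.983. The median absolute deviation of an array from its group mean was 0.111 (Fed-Fed-Fed array 6) to 0.139 (Fast-Fast-Fed array 5), and the first principal component of the deviations held 11.2% of their variance. Fast-Fast-Fed array 5 also had the lowest mean of its group over the small RNA genes and over the macrophage genes described further on, though not the lowest value of each gene. Of the 25 named genes with the highest SD, Fast-Fast-Fed array 2 was the highest of its group for 9, and Fed-Fed-Fed array 7 the lowest for 6 and the highest for 6. The labels give no processing batch. The sample records give a cohort size below the 31 arrays of the series, and how the arrays divide over cohorts or animals is not stated. The replicates are taken as separate animals, which could not be checked.

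The gene with the highest SD was Moxd1, a monooxygenase related to dopamine beta-hydroxylase and expressed in mouse liver mainly in males. It had 2.02, 3.26 and 7.83 in Fast-Fast-Fed livers and 2.29, 5.38 and 9.11 in Fed-Fed-Fed livers. In Fast-Fast-Fed livers 4 of the 8 read 2.48 or less, in Fed-Fed-Fed livers only array 2 did, and the groups overlapped. The lowest values of both groups lay near the median of all probe sets on an array (2.01 to 2.07), so no fold range is given. The SD of Moxd1 was 2.08 (95% interval 1.52 to 3.28, from the chi-square distribution, which takes no account of Moxd1 having been picked as the highest). Leaving out any 1 array gave an SD of 1.84 to 2.16.

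Other genes known to follow growth hormone or to be male-biased also stood high. Socs2, a STAT5 target that feeds back on growth hormone signalling, had 2.42, 3.65 and 5.27 in Fast-Fast-Fed livers and 2.59, 5.30 and 6.22 in Fed-Fed-Fed livers, with an SD of 1.19, or 0.73 when its 2 probe sets were averaged. Onecut1, the hepatocyte transcription factor HNF6, had 3.50, 6.98 and 7.54 in Fast-Fast-Fed livers and 3.96, 6.42 and 7.98 in Fed-Fed-Fed livers, with an SD of 1.33. For Onecut1 it was a minority of livers that stood low: Fast-Fast-Fed arrays 3 and 1 (3.50 and 4.99) and Fed-Fed-Fed array 2 (3.96), while the other 13 lay at 5.75 or above. Ugt2b38, a steroid-conjugating glucuronosyltransferase, had 2.49, 3.56 and 5.27 in Fast-Fast-Fed livers and 2.32, 4.16 and 5.21 in Fed-Fed-Fed livers (SD 0.98). In Fast-Fast-Fed livers the extremes of Moxd1 and Onecut1 were opposed. There array 3 held the highest Moxd1 (7.83) and the lowest Onecut1 (3.50). Array 6 held the lowest Moxd1 (2.02) and the highest Onecut1 (7.54). In the other group, Fed-Fed-Fed array 2 was the lowest for Moxd1, Socs2, Onecut1 and Ugt2b38. Selenbp2, a selenium-binding protein with male-biased expression, was lowest on that same array too, at 9.39, against a group median of 10.78. Over the 19 male-biased genes listed, 16 were measured and 3 of them had an SD above 0.5, with a median SD of 0.34; the mean of the list on Fed-Fed-Fed array 2 stood 0.69 below its group, and its mean pairwise correlation was 0.26 with that array and 0.15 without it. The 15 measured female-biased genes had a mean pairwise correlation of -0.03. Their median level was 1.63, under the median of all probe sets on an array (2.01 to 2.07). That correlation therefore says nothing about these genes as a set.

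**Figure D2:**
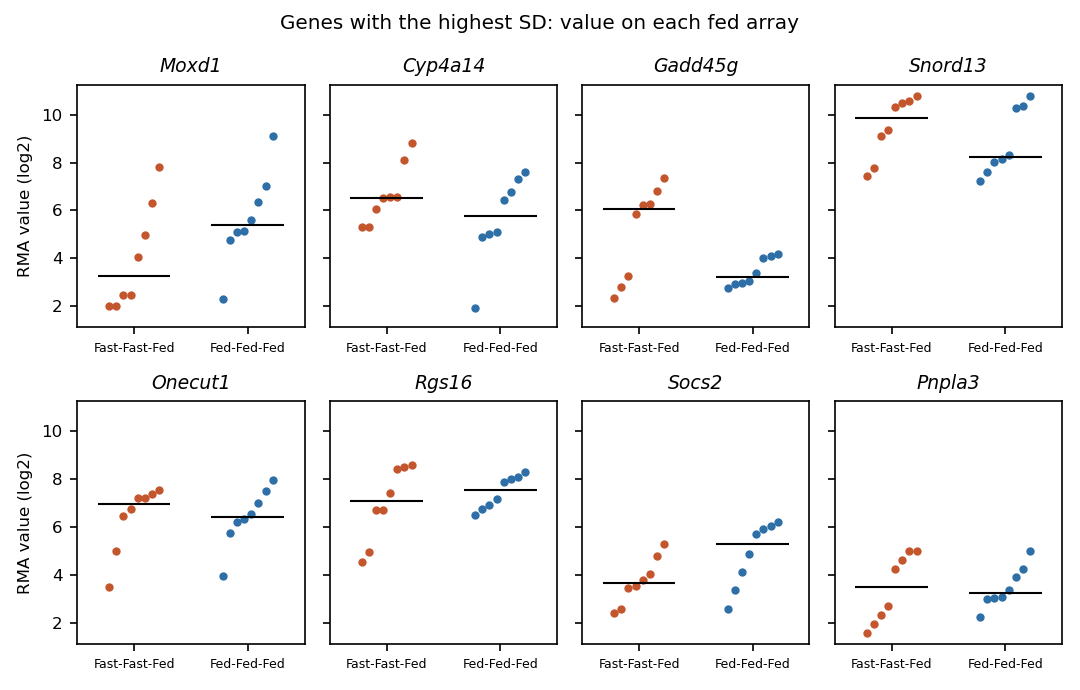
RMA values (y axis, log2) of the 8 named genes with the highest SD, 1 point per liver, Fast-Fast-Fed (red, left) and Fed-Fed-Fed (blue, right), with the group median as a bar. Gadd45g divides the Fast-Fast-Fed livers into 5 high and 3 low, and the lowest Fed-Fed-Fed livers read 1.93 for Cyp4a14 and 3.96 for Onecut1.

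The genes that varied most were then ordered by which of them moved together. The 200 genes with the highest SD (the last one taken, Pld4, and the next, Olfr1033, both had 0.536) were clustered by the correlation of their deviations over the 16 fed arrays, with the tree divided at a mean correlation of 0.6. This gave 7 groups of 5 or more genes holding 52 of the 200, while the mean pairwise correlation over all 200 was 0.01. These groups were found in the same values that describe them and carry no test. The 15 fasted arrays were not used to find them, and their mean correlation is given beside each for comparison, without a test of the difference.

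**Figure D3:**
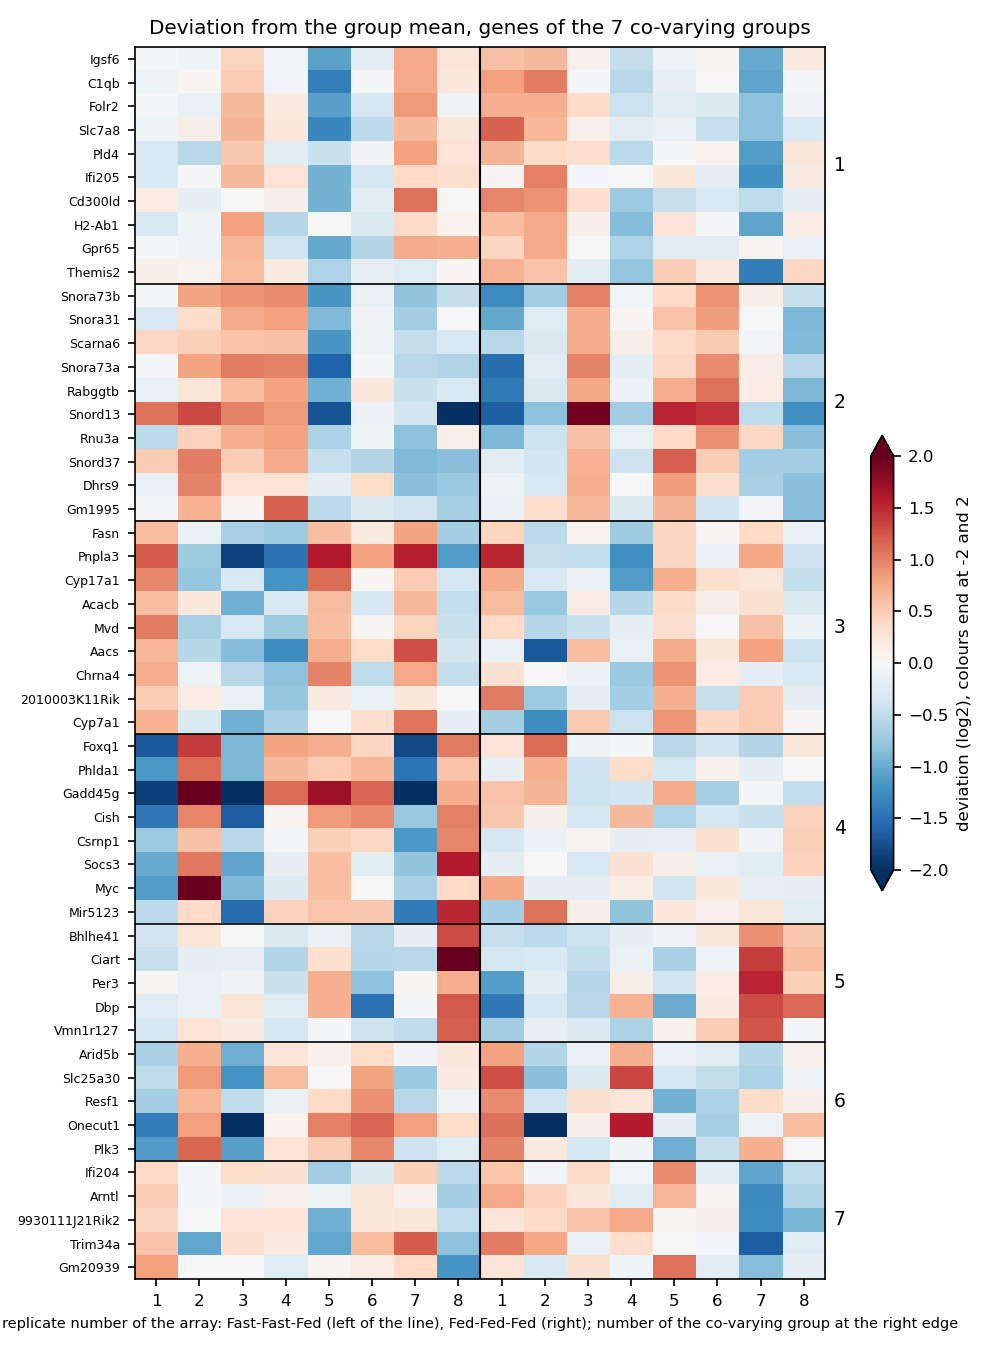
Deviation of each gene from its group mean (colour, log2) on the 16 fed arrays (columns, Fast-Fast-Fed left of the line, Fed-Fed-Fed right) for the 52 genes of the 7 co-varying groups (rows, group number at the right edge). Group 4 shows strong colours on the Fast-Fast-Fed side, with arrays 1, 3 and 7 low, and pale ones on the Fed-Fed-Fed side.

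Gadd45g, a growth arrest and stress protein, led a group of 8 genes (group 4) that moved mainly within the Fast-Fast-Fed livers. It had 2.36, 6.05 and 7.35 in Fast-Fast-Fed livers and 2.76, 3.22 and 4.17 in Fed-Fed-Fed livers, with an SD of 1.46. Fast-Fast-Fed arrays 1, 3 and 7 read 3.25, 2.78 and 2.36, within or below the Fed-Fed-Fed range, and the other 5 read 5.87 or more, above it. Its partners were the forkhead factor Foxq1, the growth factor response gene Phlda1, the STAT5 target and cytokine signalling inhibitor Cish, its relative Socs3, the transcription factors Csrnp1 and Myc, and Mir5123. Foxq1 had 4.79, 7.17 and 7.99 in Fast-Fast-Fed livers and 4.62, 5.15 and 6.33 in Fed-Fed-Fed livers. Cish had 1.95, 4.05 and 4.61 in Fast-Fast-Fed livers and 1.84, 2.34 and 3.11 in Fed-Fed-Fed livers. Myc reached 6.66 on Fast-Fast-Fed array 2 and stayed between 3.57 and 5.30 on the other 15. The mean of the group on Fast-Fast-Fed arrays 1, 3 and 7 stood 1.19, 1.23 and 1.34 log2 units below the group mean, and on array 2 it stood 1.22 above. The mean pairwise correlation was 0.86 among Fast-Fast-Fed livers and 0.08 among Fed-Fed-Fed livers, and 0.15 among the fasted arrays; the difference was not tested. The second probe sets of Foxq1 and Cish, which were dimmer, had SDs of 0.32 and 0.37 and correlated with the ones used at 0.47 and 0.82, and the mean of both probe sets of Foxq1 had an SD of 0.58.

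A further group of 5 genes (group 6) held Onecut1 with Arid5b, Slc25a30, Resf1 and Plk3. Arid5b is a chromatin-associated regulator of fat metabolism, Slc25a30 a mitochondrial carrier and Plk3 a stress-responsive kinase. Slc25a30 had 5.10, 6.37 and 7.14 in Fast-Fast-Fed livers and 5.25, 5.77 and 7.42 in Fed-Fed-Fed livers (SD 0.80). The mean of the group was lowest on Fast-Fast-Fed array 3 (-1.33 from the group mean) and highest on Fed-Fed-Fed array 1 (1.03). Its mean correlation was 0.71 over the fed arrays and 0.09 over the fasted ones. Among the 7863 brighter genes, those of the group left out, Nod1 ran most strongly against this group (r = -0.83). Bcl6, a repressor known to oppose STAT5 in male mouse liver, was number 6 in that order (r = -0.74). Both were picked from all genes searched, so their correlations carry no test.

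Fat synthesis genes formed group 3, which was led by Fasn, the fatty acid synthase, and held Pnpla3, Aacs, Cyp17a1, Cyp7a1, Chrna4, Acacb, Mvd and 2010003K11Rik. Pnpla3, a lipid droplet acyl hydrolase and SREBP1c target, had 1.58, 3.47 and 5.01 in Fast-Fast-Fed livers and 2.26, 3.22 and 5.00 in Fed-Fed-Fed livers, with an SD of 1.18. The 2 groups covered nearly the same range, and in each a few livers stood at the top: Fast-Fast-Fed arrays 5, 7 and 1 and Fed-Fed-Fed array 1 all read 4.64 or more. Aacs, the acetoacetyl-CoA synthetase that feeds ketone carbon into lipid, had 5.51, 6.76 and 8.05 in Fast-Fast-Fed livers and 5.47, 7.18 and 7.95 in Fed-Fed-Fed livers (SD 0.85). Fasn itself had an SD of 0.55, and Acacb, the acetyl-CoA carboxylase of the mitochondrial surface, also 0.55. Cyp7a1, the rate-limiting enzyme of bile acid synthesis, had 6.95, 7.81 and 8.97 in Fast-Fast-Fed livers and 7.71, 9.17 and 9.83 in Fed-Fed-Fed livers (SD 0.70). The mean correlation of the 9 genes was 0.73 over the fed arrays, 0.81 in Fast-Fast-Fed livers and 0.65 in Fed-Fed-Fed livers, and 0.12 over the fasted arrays.

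Of 20 lipogenic genes 19 were measured; 6 had an SD above 0.5, the median was 0.37, and their mean pairwise correlation was 0.63. Fast-Fast-Fed arrays 7 and 5 stood 0.54 and 0.42 above their group and arrays 3 and 4 stood 0.59 and 0.45 below it. In the cholesterol pathway 18 of 24 sterol synthesis genes were measured, only Mvd passed 0.5, the median SD was 0.28, and the mean correlation was 0.65, against 0.28 over the fasted arrays. Thrsp, a lipogenic regulator induced by carbohydrate, and Elovl6, the elongase of palmitate, had the closest tie of the fat synthesis pairs, with r = 0.93 and rho = 0.90 (permutation within groups, adjusted p = 8.67e-05 for r and 0.00026 for rho). Thrsp had 8.80, 9.42 and 10.34 in Fast-Fast-Fed livers and 8.98, 9.70 and 10.34 in Fed-Fed-Fed livers. The pair held within Fast-Fast-Fed livers (r = 0.98), within Fed-Fed-Fed livers (0.85) and without the 2 arrays farthest from the median of Thrsp (0.89), and r was -0.03 over the fasted arrays. Sqle and Fdps, enzymes of squalene oxidation and farnesyl diphosphate synthesis, were tied at r = 0.89 (rho = 0.89, permutation adjusted p = 8.67e-05 and 0.00026), or 0.87 without 2 arrays.

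The tests of pairs covered 26 of 28 textbook pairs of genes with both partners measured, each over 16 livers with 100000 permutations within groups, 2-sided, and Benjamini-Hochberg adjustment over the 26. Of these 7 passed an adjusted p of 0.05, 6 positive and 1 negative, and 10 had an unadjusted p below 0.05; by Spearman's rho 9 passed. The smallest p the permutations can give is 1e-05. The pairs were chosen with earlier results of these data known, and the adjustment does not account for that choice.

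Further lipid pairs did not pass by r. Srebf1, which encodes SREBP1, and Fasn had r = 0.58 and rho = 0.60 (permutation adjusted p = 0.0848 and 0.0553, r = 0.59 without 2 arrays). The pair passed when Fast-Fast-Fed array 2 (adjusted p = 0.034) or Fed-Fed-Fed array 1 (0.0276) was left out, by the same permutation test, and its adjusted p ran from 0.0276 to 0.946 over 22 alternatives. Sqle and Fasn had r = 0.58 and rho = 0.67 (permutation adjusted p = 0.06 and 0.0197); r was 0.82 without 2 arrays. That pair passed without Fast-Fast-Fed array 2, Fed-Fed-Fed array 3 or Fed-Fed-Fed array 4, with permutation adjusted p from 0.012 to 0.332 over the alternatives. Cyp7a1 and Cyp8b1, which acts further along in bile acid synthesis, had r = 0.33 and rho = 0.30 (permutation adjusted p = 0.42 and 0.532, r = 0.04 without 2 arrays).

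Cyp4a14, a microsomal fatty acid hydroxylase and sensitive PPAR-alpha target, had the next highest SD after Moxd1. It had 5.30, 6.53 and 8.82 in Fast-Fast-Fed livers and 1.93, 5.76 and 7.62 in Fed-Fed-Fed livers. The highest were Fast-Fast-Fed arrays 2 and 7 (8.82 and 8.12), and Fed-Fed-Fed array 6 was the lowest at 1.93, while the other 15 livers read 4.90 or more. The SD was 1.57 (95% interval 1.15 to 2.48), and 1.20 without Fed-Fed-Fed array 6. Of 28 PPAR-alpha targets 24 were measured and 7 had an SD above 0.5, with a median SD of 0.31 and a mean pairwise correlation of 0.30. Angptl4, an inhibitor of lipoprotein lipase, had 5.65, 6.84 and 7.65 in Fast-Fast-Fed livers and 5.98, 6.74 and 7.58 in Fed-Fed-Fed livers (SD 0.68). Fgf21, a hormone the liver releases in fasting, had 3.52, 4.11 and 5.40 in Fast-Fast-Fed livers and 4.19, 5.01 and 5.93 in Fed-Fed-Fed livers (SD 0.66).

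Cyp4a14 and Vnn1, the pantetheinase vanin, had r = 0.50 and rho = 0.63 (permutation adjusted p = 0.122 and 0.0401, r = 0.65 without 2 arrays), and passed without Fed-Fed-Fed array 2 (adjusted p = 0.0481) or array 6 (0.0397), with a permutation adjusted p of 0.0397 to 0.821 over the alternatives. Cyp4a14 and Pdk4, the kinase that closes pyruvate dehydrogenase, had r = 0.12 and rho = 0.13 (permutation adjusted p = 0.744 and 0.806, r = 0.37 without 2 arrays). Srebf1 and Cyp4a14 had r = -0.35 and rho = -0.23 (permutation adjusted p = 0.382 and 0.634, r = -0.24 without 2 arrays). The 3 genes most like Cyp4a14 among 7862 searched were Retsat, a retinol saturase (r = 0.83, rho = 0.77), the thioredoxin-like Txndc17 (0.82, 0.89) and the microsomal glutathione transferase Mgst3 (0.80, 0.68), and over the fasted arrays their r with Cyp4a14 was 0.43, 0.15 and -0.31.

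Clock genes made up group 5 and part of group 7. The liver clock is a loop in which the activators Arntl (BMAL1) and Clock switch on their own repressors and the output factor Dbp, so activators and outputs run in opposite phase. Dbp had 5.35, 6.75 and 8.07 in Fast-Fast-Fed livers and 4.95, 6.31 and 7.70 in Fed-Fed-Fed livers, with an SD of 0.90. It was highest on Fast-Fast-Fed arrays 8 and 5 and Fed-Fed-Fed arrays 7 and 8, lowest on Fast-Fast-Fed array 6 and Fed-Fed-Fed arrays 1 and 5, and the groups overlapped almost fully. Arntl had 5.13, 5.86 and 6.33 in Fast-Fast-Fed livers and 4.52, 5.91 and 6.55 in Fed-Fed-Fed livers, and was lowest on Fast-Fast-Fed array 8 and Fed-Fed-Fed arrays 7 and 8. Over the 16 livers Dbp and Arntl had r = -0.87 and rho = -0.94 (permutation adjusted p = 0.000572 and 0.00026), r = -0.93 without 2 arrays, -0.75 in Fast-Fast-Fed livers and -0.94 in Fed-Fed-Fed livers.

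Group 5 held Dbp, the circadian repressors Ciart, Per3 and Bhlhe41, and the vomeronasal receptor gene Vmn1r127, with a mean correlation of 0.79 over the fed arrays and 0.38 over the fasted ones. Ciart had 2.43, 2.68 and 5.22 in Fast-Fast-Fed livers and 1.99, 2.42 and 4.02 in Fed-Fed-Fed livers. Its SD of 0.82 rested in good part on Fast-Fast-Fed array 8, since it was 0.545 without it. Per3 had 3.72, 4.52 and 5.27 in Fast-Fast-Fed livers and 3.20, 4.25 and 5.82 in Fed-Fed-Fed livers (SD 0.67). Of 12 clock genes that peak later in the day 11 were measured and 6 had an SD above 0.5, and of 6 that peak near dawn 5 were measured and 2 passed, Npas2 (SD 0.78) and Arntl (0.54). The later list stood 0.83 above its group on Fast-Fast-Fed array 8 and 0.71 above on Fed-Fed-Fed array 7, and the dawn list stood 0.46 and 0.50 below on the same arrays. Group 7 joined Arntl with Trim34a, Ifi204, Gm20939 and 9930111J21Rik2, of which Trim34a and Ifi204 belong to interferon-responsive families. Its mean correlation of 0.68 was 0.55 without Fed-Fed-Fed array 7 and 0.05 over the fasted arrays. Per3 and Nr1d2, the repressor REV-ERB-beta, had r = 0.31 and rho = 0.37 (permutation adjusted p = 0.467 and 0.372, r = 0.36 without 2 arrays). The genes most like Dbp were Per3 (r = 0.91), Narf (0.89) and the uridine phosphorylase Upp2 (0.84), and all 3 also had positive r over the fasted arrays (0.88, 0.68 and 0.56).

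Promoters of Ciart and Per3 are shown because these genes moved together and their start regions hold textbook clock elements, the E-box bound by the activators and the D-box bound by Dbp. The sequences are the 250 bases before the start of each gene in RefSeq on GRCm38.p6, at chr3:95882229-95882478 (minus strand) for Ciart and chr4:151044666-151044915 (minus strand) for Per3. Capitals mark CACGTG in Ciart and TTATGTAA in Per3, searched on both strands.
Ciart: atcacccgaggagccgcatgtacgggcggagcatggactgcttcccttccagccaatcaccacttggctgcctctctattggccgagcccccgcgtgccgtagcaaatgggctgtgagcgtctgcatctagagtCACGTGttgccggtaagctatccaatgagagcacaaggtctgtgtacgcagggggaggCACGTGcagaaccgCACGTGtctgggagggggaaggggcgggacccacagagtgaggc
Per3: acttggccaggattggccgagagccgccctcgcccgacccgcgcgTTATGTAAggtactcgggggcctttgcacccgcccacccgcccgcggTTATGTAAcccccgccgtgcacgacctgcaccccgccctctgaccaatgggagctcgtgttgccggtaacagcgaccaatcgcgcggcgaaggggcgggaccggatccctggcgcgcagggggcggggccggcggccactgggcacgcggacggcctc
Ciart held CACGTG 3 times and Per3 held TTATGTAA 2 times, and none of these matches overlapped one of the other motifs searched. Among 32851 promoters of this length CACGTG was found in 6.02%, and in 4 of the 11 later-peaking clock genes with a promoter in the table (Bhlhe41, Ciart, Per1 and Tef). CACGTG was also in 1 of 5 dawn clock genes (Cry1) and in 2 of 12 endoplasmic reticulum chaperone genes (Calr and Dnajb9). TTATGTAA was found in 0.819% of promoters and, of those 11 genes, in Per3 alone. Ciart and Per3 shared neither motif in these bases. Their promoters were chosen for holding one, so the matches are not a result of these arrays and do not bear on the genes moving together.

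Small nuclear and nucleolar RNAs formed group 2. These short RNAs guide the processing and modification of ribosomal and spliceosomal RNA and are mostly cut from the introns of host genes. Snord13 (U13) had 7.43, 9.85 and 10.80 in Fast-Fast-Fed livers and 7.21, 8.24 and 10.78 in Fed-Fed-Fed livers, with an SD of 1.36. It stood high, above 10, on 7 livers, Fast-Fast-Fed arrays 1 to 4 and Fed-Fed-Fed arrays 3, 5 and 6. Snora73a, one of the U17 RNAs, had 5.50, 7.08 and 8.14 in Fast-Fast-Fed livers and 5.25, 6.73 and 7.75 in Fed-Fed-Fed livers (SD 0.87), and Snora73b had an SD of 0.80. The group also held Snora31, Scarna6, Snord37, Rnu3a (U3), Rabggtb, a prenyltransferase subunit whose human counterpart carries snoRNAs in its introns, and the retinol dehydrogenase Dhrs9. Rabggtb had 4.90, 5.90 and 6.66 in Fast-Fast-Fed livers and 4.01, 5.43 and 6.50 in Fed-Fed-Fed livers. Fast-Fast-Fed array 5 stood 0.93 below its group and Fed-Fed-Fed array 1 stood 0.87 below, and the highest means were those of Fed-Fed-Fed array 3 (0.89) and Fast-Fast-Fed array 4 (0.80). The mean correlation was 0.77 over the fed arrays and 0.32 over the fasted ones. Among genes outside the group the closest were further small RNAs, Snora16a (r = 0.93) and Scarna10 (0.92), and Hsbp1 ran most strongly against it (-0.92).

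Resident macrophage genes formed group 1. Kupffer cells line the liver sinusoids and clear particles and dying cells from portal blood. All 12 of their markers listed were measured, 5 of them (Marco, C1qb, Folr2, Timd4 and Cd5l) had an SD above 0.5, the median SD was 0.47, and the mean pairwise correlation was 0.74. In bulk liver RNA, fewer cells of a type and less RNA per cell cannot be told apart. C1qb, a subunit of complement component C1q, had 5.52, 6.89 and 7.64 in Fast-Fast-Fed livers and 6.00, 7.03 and 8.08 in Fed-Fed-Fed livers (SD 0.65). The lowest livers for C1qb were Fast-Fast-Fed array 5 and Fed-Fed-Fed array 7, and Fed-Fed-Fed arrays 1 and 2 were the highest. Marco, with the highest SD of the 12 markers (0.68), was not in group 1 and followed another order. It was lowest on Fast-Fast-Fed array 7 (3.23), where C1qb was highest (7.64). In Fed-Fed-Fed livers Marco was highest on array 6 (5.12) and lowest on array 4 (2.98). The mean of the 12 markers ran from 4.88 to 6.12 in Fast-Fast-Fed livers and from 5.17 to 6.43 in Fed-Fed-Fed livers. Without Fast-Fast-Fed array 5 their mean correlation was 0.70. Clec4f, a lectin made in mouse liver by Kupffer cells, and Adgre1 (F4/80) had r = 0.71 and rho = 0.77 (permutation adjusted p = 0.0169 and 0.0091, r = 0.61 without 2 arrays). Without Fast-Fast-Fed array 5 the permutation adjusted p of that pair was 0.0732 (r = 0.61), in a range of 0.0091 to 0.108 over 22 alternatives.

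The 10 genes of group 1, which included Slc7a8, Igsf6, Pld4, Ifi205, Cd300ld and the MHC class II gene H2-Ab1, had a mean correlation of 0.76 over the fed arrays, 0.72 in Fast-Fast-Fed livers, 0.79 in Fed-Fed-Fed livers and 0.65 over the fasted arrays, the highest of the 7 groups there. Leaving out any 1 fed array gave 0.73 to 0.77. Of the sinusoidal endothelial markers all 12 were measured, none passed an SD of 0.5, the median SD was 0.20, and the mean correlation was 0.58, with 0.29 in Fast-Fast-Fed livers and 0.76 in Fed-Fed-Fed livers (a difference that was not tested). On Fed-Fed-Fed arrays 1 and 2 their mean stood 0.33 and 0.27 above the group, and the Kupffer markers stood 0.54 and 0.65 above. Ptprb, an endothelial phosphatase, had r = 0.96 with the mean of group 1, and the macrophage growth factor receptor Csf1r had 0.94. Both were picked as the highest of the 7863 brighter genes, those of the group left out, so their correlations carry no test. The mean of the hepatocyte markers differed from its group by at most 0.11 on any fed array.

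The 12 markers of stellate cells and fibroblasts had a mean correlation of 0.06 and no member with an SD above 0.5. Markers of T and NK cells, of neutrophils and monocytes, and of B and plasma cells had median levels of 1.93, 1.45 and 1.81, at or under the median of all probe sets on an array (2.01 to 2.07), so their mean correlations (0.06, 0.04 and 0.09) say nothing about these cells. Ighm, the constant region of immunoglobulin M, had 4.86, 6.61 and 7.92 in Fast-Fast-Fed livers and 5.82, 6.75 and 7.73 in Fed-Fed-Fed livers (SD 0.88). The 7 probe sets of Ighm disagreed: the next brightest had an SD of 0.44 and correlated with the one used at r = -0.06, and their mean had an SD of 0.22. No marker of red blood cells was measured out of 7 listed.

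**Figure D4:**
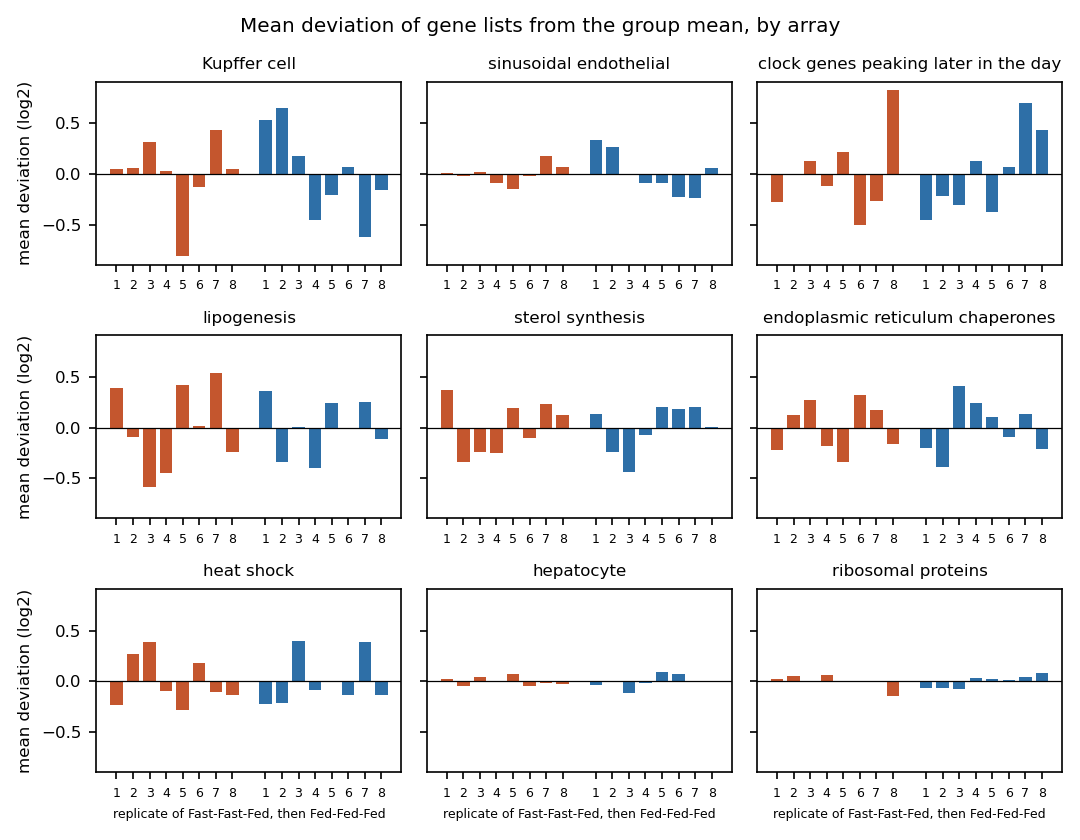
Mean deviation of 9 gene lists from the group mean (y axis, log2) on each fed array (x axis, replicate number), Fast-Fast-Fed in red and Fed-Fed-Fed in blue. Kupffer markers are low on Fast-Fast-Fed array 5 and Fed-Fed-Fed array 7, late clock genes are high on Fast-Fast-Fed array 8 and Fed-Fed-Fed array 7, and hepatocyte and ribosomal protein lists stay near 0.

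Chaperones of the endoplasmic reticulum, which fold secreted proteins and are raised when folding demand grows, also varied as a set. Of 14 listed 13 were measured; 2 had an SD above 0.5, the median was 0.27, and the mean correlation was 0.66 over the fed arrays and 0.75 over the fasted ones. Creld2, a secreted folding factor, had 7.08, 7.69 and 8.68 in Fast-Fast-Fed livers and 7.34, 8.29 and 9.19 in Fed-Fed-Fed livers (SD 0.68). In Fast-Fast-Fed livers 4 arrays stood at 8.21 or above and 4 at 7.17 or below, with none between, and the Fed-Fed-Fed livers lay throughout their range. Sdf2l1, a co-factor of the chaperone BiP, had 6.02, 6.71 and 7.79 in Fast-Fast-Fed livers and 6.78, 7.33 and 8.02 in Fed-Fed-Fed livers. The pair had the highest correlation of the 26, r = 0.94 and rho = 0.94 (permutation adjusted p = 8.67e-05 and 0.00026), and r = 0.93 without 2 arrays and 0.95 over the fasted arrays. Hspa5, which encodes BiP itself, moved less, with 7.52, 7.90 and 8.37 in Fast-Fast-Fed livers and 7.66, 8.16 and 8.62 in Fed-Fed-Fed livers (SD 0.30).

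The promoters of Creld2 and Hspa5 are shown because they hold the endoplasmic reticulum stress element, the sequence bound by ATF6 together with NF-Y. They are the 250 bases before the RefSeq start on GRCm38.p6, at chr15:88819396-88819645 (plus strand) for Creld2 and chr2:34771840-34772089 (plus strand) for Hspa5. Capitals mark CCAAT and CCACG with 9 bases between them, searched on both strands, which lies on the minus strand in Creld2 and on the plus strand in Hspa5.
Creld2: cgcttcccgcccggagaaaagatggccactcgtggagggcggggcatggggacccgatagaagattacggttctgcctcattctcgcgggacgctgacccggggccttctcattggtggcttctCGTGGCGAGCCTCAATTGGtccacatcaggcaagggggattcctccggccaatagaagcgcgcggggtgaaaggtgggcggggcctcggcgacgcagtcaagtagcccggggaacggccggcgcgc
Hspa5: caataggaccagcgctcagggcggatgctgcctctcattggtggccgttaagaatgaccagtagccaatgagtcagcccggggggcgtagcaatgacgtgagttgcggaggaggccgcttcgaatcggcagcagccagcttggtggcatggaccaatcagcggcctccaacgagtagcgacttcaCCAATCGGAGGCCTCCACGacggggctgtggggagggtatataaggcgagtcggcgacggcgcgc
Each held 1 match, with no overlap with the clock motifs. This motif was found in 0.113% of the 32851 promoters, and in 6 of the 12 chaperone genes of the list with a promoter in the table (Calr, Creld2, Dnajc3, Hsp90b1, Hspa5 and Pdia6). Those 6 genes are known from textbooks for this element, so the match describes the list and is not a result of these arrays.

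Heat shock genes varied as well. The means of their list and of the endoplasmic reticulum list were high together on Fed-Fed-Fed array 3 (0.40 and 0.41 above the group). Both were low on Fast-Fast-Fed array 5 (-0.28 and -0.34). Hspa1b, the inducible HSP70, had 4.24, 5.11 and 6.75 in Fast-Fast-Fed livers and 4.45, 5.42 and 6.85 in Fed-Fed-Fed livers (SD 0.85). Fast-Fast-Fed arrays 2, 3 and 6 and Fed-Fed-Fed arrays 7 and 3 stood at 6.10 or above, and the other 11 livers at 5.56 or below. Its co-chaperone Dnajb1 followed, with r = 0.87 and rho = 0.70 (permutation adjusted p = 0.00026 and 0.0156), r = 0.86 without 2 arrays and 0.91 over the fasted arrays, although the SD of Dnajb1 was only 0.27. Of 12 heat shock genes 10 were measured, 2 had an SD above 0.5 and the mean correlation was 0.41. Genes of the integrated stress response, which answers amino acid shortage, were all measured (12 of 12), and their mean correlation was -0.004. Asns and Trib3 had r = 0.19 and rho = 0.17 (permutation adjusted p = 0.643 and 0.706, r = 0.37 without 2 arrays). The median level of this list was 2.72 and the mean of Trib3 was 2.85, below 4, where most probe sets are dim. These low correlations therefore do not show that the genes move independently.

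**Figure D5:**
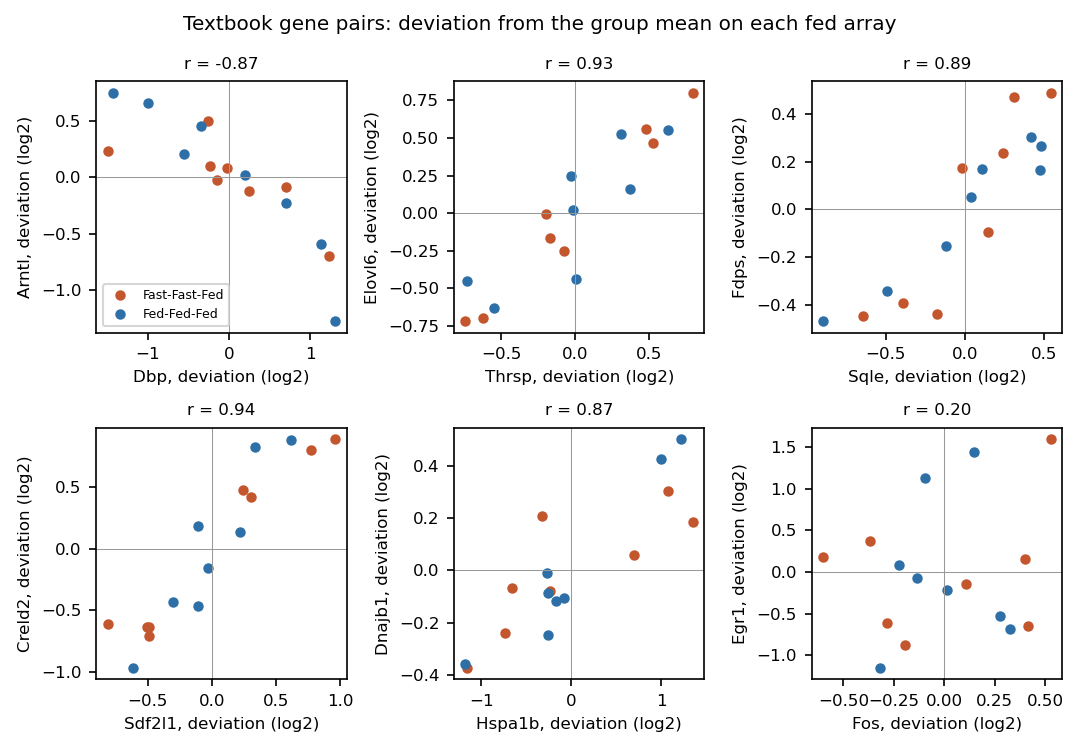
Deviation from the group mean (both axes, log2) of 6 gene pairs on the 16 fed arrays, Fast-Fast-Fed in red and Fed-Fed-Fed in blue, with Pearson's r above each panel. Dbp and Arntl run in opposite directions (r = -0.87) and 4 pairs run together. Fos and Egr1 have r = 0.20, where Fos is dim (mean 1.64).

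Metallothioneins, small zinc-binding proteins raised by metals and glucocorticoids, also moved as a pair. Mt2 had 4.07, 4.88 and 5.55 in Fast-Fast-Fed livers and 4.16, 4.92 and 5.55 in Fed-Fed-Fed livers (SD 0.49). Mt1 followed it with r = 0.76 and rho = 0.70 (permutation adjusted p = 0.00407 and 0.017), r = 0.66 without 2 arrays and 0.92 over the fasted arrays. The pair of Mt2 and Lcn2, the iron-binding lipocalin, had r = 0.38 and rho = 0.41 (permutation adjusted p = 0.381 and 0.305, r = 0.57 without 2 arrays). The glucocorticoid targets Fkbp5 and Tsc22d3 had r = -0.06 and rho = -0.08 (permutation adjusted p = 0.884 and 0.87, r = -0.28 without 2 arrays). The 15 glucocorticoid and stress genes, all measured, had a mean correlation of 0.06 and a single member, Gadd45g, with an SD above 0.5.

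Of 13 genes of gluconeogenesis and the hormonal response to fasting 12 were measured, 2 had an SD above 0.5 (Igfbp1 and Sik1), and the mean correlation was 0.20 over the fed arrays, 0.17 in Fast-Fast-Fed livers and 0.25 in Fed-Fed-Fed livers. Igfbp1, an insulin-repressed binding protein of the insulin-like growth factors, had 5.03, 7.00 and 7.36 in Fast-Fast-Fed livers and 5.87, 6.79 and 8.22 in Fed-Fed-Fed livers (SD 0.81), and Fast-Fast-Fed array 3 stood lowest. Pck1, the gluconeogenic PEP carboxykinase, had an SD of 0.37, and the pair had r = -0.35 and rho = -0.29 (permutation adjusted p = 0.382 and 0.532, r = -0.15 without 2 arrays). Outside that list, Rgs16, which shortens G protein signals, had 4.52, 7.07 and 8.59 in Fast-Fast-Fed livers and 6.49, 7.53 and 8.31 in Fed-Fed-Fed livers (SD 1.22), and the lowest livers were Fast-Fast-Fed arrays 6 and 3. Angptl8, a hormone made after feeding that restrains lipoprotein lipase, had 6.59, 8.65 and 10.39 in Fast-Fast-Fed livers and 7.97, 8.57 and 9.36 in Fed-Fed-Fed livers (SD 0.93). Its spread estimated from the median absolute deviation was 0.56. Dbp and Srebf1 had r = 0.13 and rho = 0.22 (permutation adjusted p = 0.742 and 0.634, r = 0.15 without 2 arrays).

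Among immediate early genes, which respond within minutes to growth factors or handling, 14 of 15 were measured and 3 had an SD above 0.5 (Egr1, Myc and Nr4a1). Egr1, a zinc finger factor, had 2.82, 3.70 and 5.29 in Fast-Fast-Fed livers and 2.62, 3.62 and 5.21 in Fed-Fed-Fed livers (SD 0.84), highest on array 2 of each group. Fos, also an immediate early factor, stayed between 1.12 and 2.25, and the pair had r = 0.20 and rho = 0.09 (permutation adjusted p = 0.643 and 0.87, r = 0.04 without 2 arrays). The mean of Fos over the fed arrays, 1.64, was under the median of all probe sets on an array (2.01 to 2.07). These correlations therefore cannot show whether the 2 genes move together.

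Secreted acute phase proteins had a median SD of 0.13 over 18 measured of 19. Saa2, a serum amyloid A protein and the one member above 0.5, had 3.54, 4.40 and 5.09 in Fast-Fast-Fed livers and 3.45, 4.95 and 6.04 in Fed-Fed-Fed livers (SD 0.71). Saa2 and Orm2, the orosomucoid, had r = 0.30 and rho = 0.24 (permutation adjusted p = 0.498 and 0.634, r = 0.02 without 2 arrays). Hamp, the iron hormone hepcidin, had 11.10, 11.66 and 12.10 in Fast-Fast-Fed livers and 11.77, 11.93 and 12.35 in Fed-Fed-Fed livers (SD 0.29), while its relative Hamp2 had 4.67, 5.48 and 6.49 in Fast-Fast-Fed livers and 4.69, 5.83 and 7.11 in Fed-Fed-Fed livers (SD 0.70). Hamp and Id1, a target of bone morphogenetic proteins, had r = 0.23 and rho = 0.04 (permutation adjusted p = 0.643 and 0.906, r = 0.08 without 2 arrays). The interferon response list had 14 measured genes, none with an SD above 0.5, a median SD of 0.29 and a mean correlation of 0.04, and Ifit1 and Isg15 had r = 0.21 and rho = 0.19 (permutation adjusted p = 0.643 and 0.671, r = 0.27 without 2 arrays).

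Other genes among the 25 with the highest SD are given here. Cyp26a1, which inactivates retinoic acid, had 2.70, 4.21 and 5.66 in Fast-Fast-Fed livers and 2.34, 3.84 and 5.28 in Fed-Fed-Fed livers (SD 0.91). Gbp11, a guanylate-binding protein, had 4.52, 5.65 and 7.05 in Fast-Fast-Fed livers and 3.78, 5.12 and 6.42 in Fed-Fed-Fed livers (SD 0.88), and the lectin-like receptor gene Clec2h had 4.85, 6.07 and 7.39 in Fast-Fast-Fed livers and 4.07, 5.42 and 6.73 in Fed-Fed-Fed livers (SD 0.87). These 3 spread over similar ranges in both groups. Olfr191, an olfactory receptor gene, and Cd300ld3 were dim, with medians of 3.11 and 3.77 in Fast-Fast-Fed livers and 2.85 and 3.38 in Fed-Fed-Fed livers, and had SDs of 0.96 and 0.81. Trim34a, a member of group 7, had an SD of 0.83, but its second, dimmer probe set had 0.27 and correlated with the first at r = 0.08, and the mean of both had an SD of 0.45. Outside the 25, Alas1, the rate-limiting enzyme of heme synthesis, had the highest SD of the xenobiotic list (0.68).

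The 15 measured ribosomal protein genes, the 18 of the respiratory chain, the 16 of the cell cycle and the 8 comparators often used as controls had median SDs of 0.19, 0.10, 0.27 and 0.12, and none of them passed 0.5. Over all genes only 1.23% passed, so a list of this size with no member above 0.5 is usual, here and in the other lists with none. The cell cycle genes had a median level of 2.32, and all genes with a mean of 2 to 4 had a median SD of 0.26. Genes that mark the pericentral and periportal zones of the liver lobule (10 and 8 measured) had median SDs of 0.22 and 0.15, with mean correlations of 0.32 and 0.12 over the fed arrays.

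The remaining textbook pairs showed no relation past the threshold. The male-biased Hsd3b5 and Elovl3 had r = 0.01 and rho = 0.04 (permutation adjusted p = 0.968 and 0.906, r = 0.07 without 2 arrays). Cyp2b10 and Cyp2c55, which respond to xenobiotics, had r = -0.02 and rho = 0.07 (permutation adjusted p = 0.965 and 0.881, r = 0.25 without 2 arrays). The pancreas genes Cela3b and Ctrb1 had r = -0.29 and rho = -0.20 (permutation adjusted p = 0.537 and 0.671, r = 0.02 without 2 arrays). Their means of 1.055 and 1.71 were under the median of all probe sets on an array (2.01 to 2.07), so these correlations say nothing about the pair.

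For the 4 genes Mt2, Srebf1, Saa2 and Hamp the most similar of the 7862 brighter genes had r between 0.76 and 0.86. Srebf1 was nearest to Eef2kmt, Sf3a1 and the sulfate transporter Slc26a1 (r = 0.84, 0.81 and 0.79, against 0.31, 0.20 and 0.02 over the fasted arrays). Mt2 was nearest to Pola2 (r = 0.78, and -0.20 over the fasted arrays), Saa2 to Aamp (0.86 and -0.30) and Hamp to Dhrs11 (0.83 and 0.19). These genes were picked as the highest of 7862, so their correlations are high by the way they were chosen and carry no test.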

How the data were processed

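Liver RNA was hybridised to 31 whole-transcript arrays with 1 label, and each array was taken as a separate animal. The authors deposited RMA log2 values (background corrected, quantile normalized and summarised per probe set), with RMA named per the submitters' processing notes and a version that was not given in the sources used here. The 16 fed arrays were analysed, and the 15 fasted arrays only for comparison of spread. Of 41345 probe sets, 23521 had 1 gene symbol, 1814 several and 16010 none; each of 22180 genes was represented by whichever of its probe sets was brightest on average across the 31. The array signal limits the precision, and no count depth exists.

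The group mean was subtracted per gene, and the SD was taken with 14 degrees of freedom. Named genes were the 25 with the highest SD (gene models and miRNA genes passed over), the 4 with the highest SD of each list, up to 8 of each co-varying group and the 3 nearest to chosen genes. Textbook pairs were tested with 100000 permutations within groups. Clustering was average linkage on 1 minus r. Alternatives were other probe set rules, cyclic loess, medians, a filter at a mean of 4, other cluster settings, a replicate block and leaving out each array. The members, lists and pairs were chosen with earlier results of these data known. Same-numbered arrays had residual correlations of -0.02 to 0.11, 1 of 8 above 0.1. The numbers were not treated as pairs, a choice that these correlations cannot settle. The SD calculation, the clustering and the pair test were checked on simulated data. Tools were Python 3.11.15, numpy 2.4.6, pandas 2.3.3, scipy 1.17.1, matplotlib 3.10.9, R 4.3.3 and limma 3.58.1. Promoters came from RefSeq on GRCm38.p6.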

Additional observations from a re-analysis of the deposited data

Results flagged for a closer look

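For each of 62 genes printed by liver and for the array deviations, the lowest and highest array of each group of 8 was set against its neighbour, and a gap above Dixon's 95% critical value as a share of the group's range was taken as standing apart. Chance does this in about 1 in 20 groups. Of the 124 gene and group combinations 5 stood apart.

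Ciart was 5.22 on Fast-Fast-Fed array 8, where the next highest liver had 3.33, a gap of 0.677 of the range. C1qb was 5.52 on Fast-Fast-Fed array 5 (next 6.77, gap 0.591), and Clec4f was 6.19 on the same array (next 6.82, gap 0.576). Alas1 was 7.59 on Fed-Fed-Fed array 2 (next 8.77, gap 0.577). Npas2 was 5.51 on Fed-Fed-Fed array 1 (next 3.77, gap 0.561). The median deviation from the group mean was 0.139 on Fast-Fast-Fed array 5, against 0.128 on the next array (gap 0.589).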

How the results depend on the processing

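Over 27 settings, 529 of 541 recomputed SDs stayed inside the 95% interval of the reported SD, and of 568 pair results 552 stayed on their side of the threshold, 6 lost it and 10 gained it. The r of 10 pairs changed sign under at least 1 setting (27 values), and none of these pairs had passed the threshold as reported. With a mean of at least 4 required, 131 genes had an SD above 0.5, fewer by construction, and the highest array deviation was 0.150. With group medians removed that deviation was 0.129. By the median absolute deviation 19 genes passed 1. Clustering 100 or 400 genes gave 2 or 11 groups. Leaving out 1 array gave 257 to 284 genes above 0.5, 9 to 12 above 1, 5 to 9 groups, a highest deviation of 0.136 to 0.139, and 6 to 9 pairs past the threshold. The causes were not tested.

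A replicate block, which removes 7 further degrees of freedom, gave 5 genes above 1, 18 groups, a highest deviation of 0.092 and 3 pairs past the threshold: Dbp and Arntl, Thrsp and Elovl6, Sqle and Fdps, Mt1 and Mt2, and Clec4f and Adgre1 lost it (permutation adjusted p = 0.108, 0.108, 0.493, 0.254 and 0.108), and Asns and Trib3 gained it (0.0437). Sqle and Fasn turned from r = 0.58 as reported to -0.57 with the block, and did not pass by r in either. The labels do not say whether the numbers pair animals or mark a processing order, and the residual correlations cannot settle it. The main results were taken without the block. The pairs named here as losing the threshold, and the SDs named here as falling, depend on that choice. With 8 arrays per group, small differences in spread cannot be resolved.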
